A study of Mus musculus with 8 samples.

Results

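The genes described here encode the proteins of the cytosolic ribosome. They were taken as every row of the count tables whose symbol starts with Rpl or Rps and a digit, together with Rplp0, Rplp1, Rplp2 and Rpsa, leaving out rows marked -ps (processed copies) and the Rps6k kinases. The rule found 78 of 14166 genes. Of these, 73 encode core ribosomal proteins (43 of the large subunit and 30 of the small subunit), 4 encode ribosomal-protein-like paralogs (Rpl22l1, Rpl36al, Rps27l and Rpl37rt), and 1, Rps19bp1, encodes a protein named for binding Rps19 rather than a ribosomal protein.

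Nuclei came from the dorsal telencephalon, the embryonic tissue that becomes the cerebral cortex, of C57BL/6J mouse embryos at E15.5. Both groups share the strain, age and tissue, and differ in genotype: 4 wildtype samples, and 4 samples in which the gene for the long noncoding RNA Pantr2 was knocked out (Pantr2-/-). The labels do not say how many embryos went into a sample or how the allele was made, and no Pantr2 count was used here, so the genotype was taken from the labels alone. The tissue was frozen before nuclei were isolated, and polyadenylated RNA was tagged at its 3' end by a droplet method with unique molecular identifiers (UMIs), so that each UMI stands for 1 captured molecule.

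Each ribosome carries 1 copy of most of its proteins, and cells make them in matched amounts from many separate genes. Their mRNAs usually begin with a run of pyrimidines, the 5' terminal oligopyrimidine (TOP) motif, through which Larp1 and the mTOR kinase couple their translation to growth signals. In the developing cortex, dividing progenitors are known for high translation, and mutations in several of these genes disturb brain or blood formation. The mRNAs are translated in the cytoplasm, so the UMIs counted in nuclei are nascent or not yet exported molecules together with any cytoplasmic RNA carried along, and these sources were not separated in the counts.

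The start sites of ribosomal protein genes were read first, because the TOP motif is the sequence feature that the family shares. RefSeq (build GRCm38.p6) gave 69 start sites for 58 of the 78 genes. A run of 8 or more bases that are all C or T, reaching within 10 bases of the start site on the transcribed strand (the other strand was not searched), was present at 28 of these start sites (40.6%, in 27 genes), against 14.0% of 32851 start sites of all genes in the table. The 30 bases around the start site, with 15 before it, are printed for 7 core genes and the paralog Rpl22l1 as examples of long runs, for Rpl39, which changed with genotype, and for Rpl5 and Rps23, which were highest in a progenitor cluster. The capitals mark the longest C or T run that reaches within 10 bases of the start site, and where a gene has several start sites the one with the longest run is shown.
Rpl38: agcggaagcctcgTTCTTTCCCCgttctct
Rpl35: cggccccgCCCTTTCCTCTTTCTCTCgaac
Rplp2: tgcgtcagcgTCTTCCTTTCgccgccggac
Rpl22l1: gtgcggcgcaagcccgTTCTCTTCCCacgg
Rpl7a: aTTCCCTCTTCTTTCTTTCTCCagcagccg
Rps10: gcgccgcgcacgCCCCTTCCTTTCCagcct
Rps18: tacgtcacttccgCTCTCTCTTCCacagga
Rps24: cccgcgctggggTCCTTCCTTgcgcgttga
Rpl39: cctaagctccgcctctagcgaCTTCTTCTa
Rpl5: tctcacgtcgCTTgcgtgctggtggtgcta
Rps23: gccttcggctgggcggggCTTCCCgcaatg
In the same order these windows lie at chr11:114668565-114668594 (plus strand), chr2:39005117-39005146 (minus), chr7:141447636-141447665 (plus), chr3:28805493-28805522 (plus), chr2:26910792-26910821 (plus), chr17:27635230-27635259 (minus), chr17:33955651-33955680 (minus), chr14:24490663-24490692 (plus), chrX:37085208-37085237 (minus), chr5:107900513-107900542 (plus) and chr13:90923107-90923136 (plus). The longest printed run belonged to Rpl7a, with 21 bases, and the shortest to Rpl5, with 3 bases. Relative to the start site, the run of Rpl7a spans -14 to 6 and that of Rpl39 spans 6 to 13. A run was not required to begin at the start site, as a TOP motif does, so the runs counted are not a count of TOP motifs. The paralog Rpl22l1 carried a run of 10 bases.

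The tables held 67319 nuclei, 33781 of them wildtype and 33538 knockout, and a library held 7280 to 10921 nuclei with 20446698 to 34083796 UMIs. A nucleus had a median of 2570 to 2905 UMIs depending on the library, of which 48 to 60 fell in ribosomal protein genes, spread over 27 to 31 of these genes. Of 66806 distinct cell barcodes, 510 occurred in more than 1 library. All 8 markers of dorsal telencephalon were detected, with a summed level of 774 to 878 CPM (UMIs scaled to a library total of 1000000) in wildtype libraries and 1010 to 1037 CPM in knockout libraries. The summed level of 5 upper-layer neuron markers was 2510 to 2989 CPM in wildtype and 1491 to 2082 CPM in knockout libraries, and these ranges did not overlap. In sums over all nuclei, a different mix of cells and a different level per cell cannot be told apart. The 7 clusters are those the authors deposited, without names. Upper-layer neuron markers were highest in cluster 1, deep-layer neuron markers in cluster 3 and next in cluster 2, apical progenitor markers in cluster 4 and intermediate progenitor markers in cluster 5, while no marker list was highest in clusters 6 and 7.

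The level counted varied widely within the family. Rps24, a small-subunit protein mutated in Diamond-Blackfan anemia, was the most abundant at 1042 ± 45.4 CPM (SD, n = 4 wildtype libraries), followed by Rps14 at 939 ± 116 CPM. The 10 with the most UMIs also included Rpl8, Rpl32, Rpl23, Rps4x, Rplp0, Rps9 and Rps3a1, and 15 genes had 100000 UMIs or more over the 8 libraries. At the low end, 5 genes had fewer than 1000 UMIs in total. Rpl23a, a large-subunit protein near the exit tunnel, was counted at 2.35 ± 0.462 CPM, and Rps6, the substrate of the S6 kinases, at 2.77 ± 0.278 CPM.

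These low values concern proteins that each ribosome needs in the same number as the abundant ones, and the sequences of their transcripts are shared with many processed copies. Among 77 genes with a principal transcript in GENCODE M21, 64 shared at least 1 stretch of 31 bases, within the last 400 bases of the transcript, with a transcript of another gene. In 31 genes fewer than 25% of such stretches were unlike every other gene, and these had a median of 12458 UMIs over the 8 libraries. In 25 genes at least 75% were unlike other genes, and their median was 26294 UMIs. Low counts and shared sequence did not go together in every gene. Rpl28 and Rpl12 had 1064 and 1141 UMIs with 100% of their stretches unlike other genes. Rps2 had 108440 UMIs with 9.73% and Rps18 had 93069 with 9.46%. How reads that match several genes were counted is not given in the sources used here, so levels were compared between genes only as counted UMIs, and the part of shared sequence in the low counts was not tested.

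As counted, the paralogs did not hold 1 order relative to the core genes they resemble. Rpl22, a large-subunit RNA-binding protein, stood at 280 ± 23.6 CPM in wildtype and its paralog Rpl22l1 at 13.9 ± 5.33 CPM. Rps27l stood at 67.9 ± 6.93 CPM, above the 4.02 ± 0.76 CPM counted for Rps27. Only 1.27% of the 31-base stretches of Rps27 were unlike other genes, against 62.4% for Rps27l, and the part of this in their order was not tested. Rpl36al was counted at 27.5 ± 4.27 CPM and Rpl37rt at 12.3 ± 0.905 CPM, the latter below the mean of 84.8 CPM for Rpl37. Rpl41, the shortest of these proteins, stood at 493 ± 55.4 CPM. Of the stalk proteins, which recruit translation factors to the ribosome, Rplp0 and Rplp1 stood at 624 ± 68.9 and 541 ± 40.1 CPM, and Rplp2 at 241 ± 63 CPM.

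Summed over the family, ribosomal protein genes took 1.70%, 1.76%, 1.80% and 1.90% of all UMIs in the 4 wildtype libraries and 1.83%, 1.96%, 1.94% and 1.98% in the 4 knockout libraries. Wildtype library 4 lay above knockout library 1, so the groups overlapped, while knockout was higher in 4 of 4 pairs of the same replicate number. In cluster 2 the shares were 1.61%, 1.70%, 1.83% and 1.81% in wildtype and 1.95%, 1.91%, 1.92% and 2.06% in knockout, without overlap. In cluster 3 they were 1.56%, 1.64%, 1.73% and 1.755% in wildtype and 1.85%, 1.82%, 1.84% and 1.96% in knockout, again without overlap. The mean difference was 0.225 percentage points in cluster 2 and 0.194 points in cluster 3, both clusters with deep-layer markers. In the progenitor clusters the groups overlapped, with differences of 0.0535 points in cluster 4 and 0.0186 points in cluster 5. Clusters 1, 6 and 7 also overlapped, with differences of 0.0719, 0.154 and 0.151 points. Knockout was higher in 4 of 4 same-numbered pairs in clusters 2, 3, 6 and 7, in 3 of 4 in cluster 1 and in 2 of 4 in clusters 4 and 5. In these genes, same-numbered samples departed from their group means together only for number 1, so the pair counts are descriptions. Leaving out 1 library gave 0.0462 (without wildtype library 1) to 0.123 points (without wildtype library 4) in cluster 1. In cluster 4 it gave 0.0239 (without knockout library 2) to 0.0919 points (without knockout library 1), and in cluster 5 the same 2 omissions gave -0.0292 and 0.08003 points. The share is a sum over genes chosen by name, so it is given as a description with no test.

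**Figure D1:**
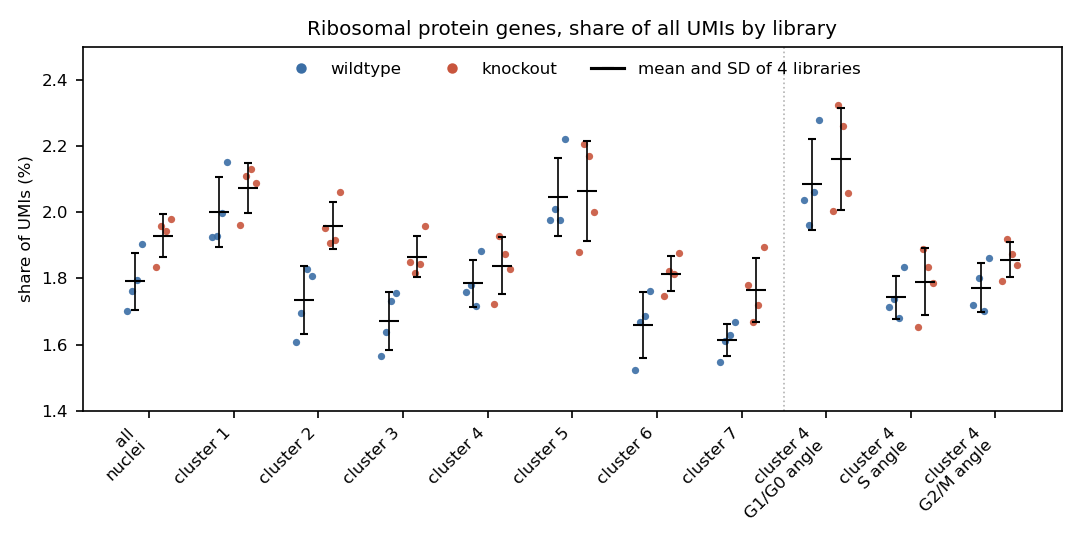
Share of all UMIs (%) that fell in the 78 ribosomal protein genes, per library (points), for all nuclei, the 7 clusters and 3 cell-cycle angles of cluster 4; bars show the mean and SD of 4 libraries and the axis does not start at 0. The wildtype and knockout points are separate in clusters 2 and 3 and overlap elsewhere, and the highest shares are in clusters 1 and 5 and in the G1/G0 angle of cluster 4.

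Across clusters, most ribosomal protein genes had a similar order of levels. The wildtype share was highest in cluster 5 (2.05% ± 0.117, SD, n = 4 libraries) and cluster 1 (2.001% ± 0.107). Cluster 4 followed with 1.79% ± 0.0706, cluster 2 with 1.73% ± 0.102, cluster 3 with 1.67% ± 0.0881, cluster 6 with 1.66% ± 0.1004 and cluster 7 with 1.61% ± 0.0495. Cluster 5 exceeded cluster 4, and cluster 1 exceeded clusters 2 and 3, in 8 of 8 libraries. Clusters 5 and 1 did not hold a fixed order (5 of 8 libraries), nor did clusters 4 and 3 (5 of 8) or clusters 4 and 2 (4 of 8). The clusters were built from the same counts, so these orders are descriptions. The clusters with the highest shares were also those with the fewest UMIs per nucleus, with medians of 2349 in cluster 5 and 2426 in cluster 1 against 2820 to 3121.5 in the other 5. Erythroid markers, the globin genes of red blood cells, were present in every cluster and took their largest wildtype shares in the same clusters, 0.0504% in cluster 5 and 0.0497% in cluster 1 against 0.0368% in cluster 7. The part of depth and of such free RNA in the order of the clusters was not tested.

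Of 65 genes with at least 10 CPM in wildtype, 50 were highest in cluster 5, 11 in cluster 1 and 4 in cluster 4, and 42 were lowest in cluster 7. The range was narrow: the ratio of cluster 4, the apical progenitors by their markers, to the mean of clusters 1, 2 and 3 had a median of 0.992 and quartiles of 0.965 and 1.03, while over 8912 genes at that level the median was 1.14 and the quartiles 0.893 and 1.503. A few members departed from the common pattern. Rps23, a small-subunit protein of the decoding center, stood at 23.2 ± 2.25 CPM in wildtype cluster 4 against 18.5 ± 3.33, 16.1 ± 1.34 and 16.9 ± 1.26 CPM in clusters 1, 2 and 3, a ratio of 1.35. Rpl10a had a ratio of 1.32 and Rpl5 of 1.28. Rpl5 binds 5S rRNA and, when free, the p53 regulator Mdm2, and it stood at 60.4 ± 7.10 CPM in cluster 4 and 50.2 ± 5.88 CPM in cluster 5. For all 3 of these genes, cluster 4 exceeded the mean of clusters 1, 2 and 3 in 8 of 8 libraries. The next highest ratios were 1.23 for Rpl37rt and 1.18 for Rpl18.

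At the other end, Rpl15 had the lowest ratio (0.882), followed by Rpl11 (0.914), Rps3 (0.918), Rpl30 (0.922) and Rpl7a (0.928). Rpl11, the partner of Rpl5 in the 5S complex, was thus near the opposite end of the list from Rpl5. It stood at 45.1 ± 8.93 CPM in wildtype cluster 4 and 60.5 ± 14.4 CPM in cluster 5, and was higher in cluster 5 in 8 of 8 libraries. Rpl5 was higher in cluster 5 in 0 of 8 libraries. Both genes were counted at similar levels, in the lower part of the family, at 48.9 ± 3.03 CPM for Rpl5 and 48.4 ± 9.96 CPM for Rpl11 over all wildtype nuclei.

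**Figure D2:**
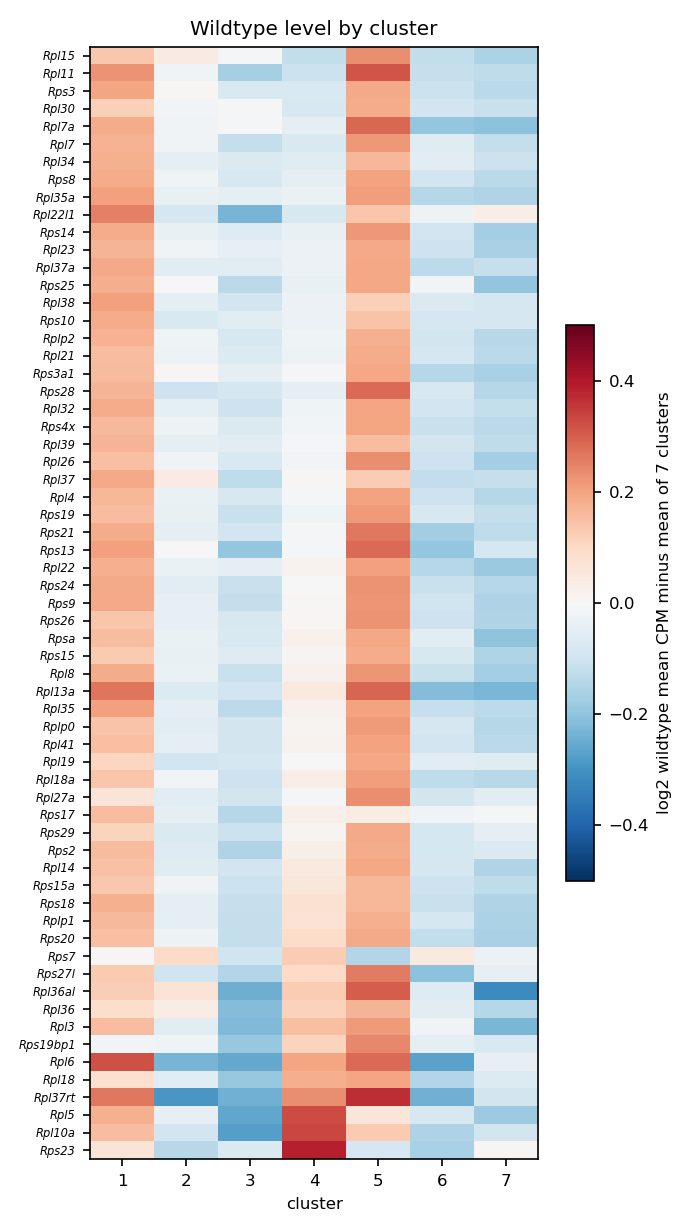
Wildtype level of ribosomal protein genes with at least 10 CPM, all but 2 of the 65 (rows, ordered by the ratio of cluster 4 to the mean of clusters 1, 2 and 3) in the 7 clusters (columns), as log2 of the mean CPM of 4 libraries minus the row mean. Columns 1 and 5 are high in nearly all rows, and the bottom rows, Rpl5, Rpl10a and Rps23, are high in cluster 4.

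Within cluster 4, nuclei were divided by the deposited cell-cycle angle. The 1036 nuclei at G1/G0 angles gave a wildtype share of 2.08% ± 0.137 (SD, n = 4), those at S angles (5734 nuclei) 1.74% ± 0.0662 and those at G2/M angles (3634 nuclei) 1.77% ± 0.0749. The G1/G0 share was above both others in 8 of 8 libraries, and the G2/M share was above the S share in 8 of 8. Nuclei at G1/G0 angles had fewer UMIs (median 2254.5) than those at S (3096.5) or G2/M angles (2886), and a larger wildtype share of erythroid markers (0.0524% against 0.0425% at S and 0.0425% at G2/M angles). The part of either in the shares was not tested. In every angle the wildtype and knockout shares overlapped.

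The effect of the knockout on single genes was tested with edgeR's quasi-likelihood test on UMIs summed per library, with Benjamini-Hochberg adjustment over all genes tested. Over all nuclei, no ribosomal protein gene passed the threshold of 0.05, where 5.26% of 13927 genes did. At an unadjusted p under 0.05 there were 11 of 78, against 19.1% of all genes, and DESeq2 called 0. The log2 fold change was above 0 in 55 of 78 genes, with a median of 0.09 beside 0.00 over all genes. Values ranged from -0.32 for Rpl7a, a large-subunit protein, to 0.58 for Rpl38, a large-subunit protein whose loss in mice alters axial patterning. The ranges of the groups were separate, with knockout higher, for 3 genes (3.53% of all genes), Rpl32 and Rps24 among them, and with knockout lower for 1 gene, Rpl7 (7.82% of all genes).

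Rpl7 stood at 153, 126, 119 and 117 CPM in wildtype and at 106, 115, 114 and 113 CPM in knockout libraries, a log2 fold change of -0.18 ± 0.08 (SE) that did not pass (edgeR adjusted p = 0.233). Rps24 stood at 985, 1028, 1065 and 1089 CPM in wildtype and at 1090, 1129, 1110 and 1192 CPM in knockout (log2 fold change 0.13 ± 0.06, edgeR adjusted p = 0.308). The groups of Rps24 met without crossing, between wildtype library 4 and knockout library 1. Replicate numbers were taken to pair the samples, though some samples of unlike numbers also passed the check given in the methods. With the replicate block edgeR called 5 genes over all nuclei, all higher in knockout, with Rpl32, Rpl39, Rps21 and Rps27a among them (9.65% of all genes passed with the block). The pairing check was over all genes. Among the ribosomal protein genes alone, same-numbered samples deviated together for number 1 (correlation 0.319) and not for numbers 2, 3 and 4 (-0.138, -0.397 and -0.0874). Some samples of unlike numbers deviated together more, up to 0.813 for wildtype 4 and knockout 3.

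Within clusters the calls were few, and each of them was higher in knockout. Cluster 2 gave 4 of 78 genes, where 9.11% of 11538 genes passed and 3.92% passed with a higher level in knockout. Cluster 3 gave 2 of 77 (3.36% of 11890 genes, 1.48% in that direction) and cluster 1 gave 1 of 78 (4.84% of 11664 genes, 2.54% in that direction). Clusters 4, 5, 6 and 7 gave none, where 4.29%, 1.77%, 0.779% and 1.03% of genes passed. At an unadjusted p under 0.05, there were 7, 7, 12 and 19 members in these 4 clusters, of 78, 74, 73 and 75 tested, against 16.0%, 9.95%, 9.91% and 9.68% of all genes, and DESeq2 called 0 in each. In clusters 1, 2 and 3 there were 8 of 78, 23 of 78 and 29 of 77 at that unadjusted threshold, against 16.5%, 21.0% and 15.3% of all genes. Untested members had too few UMIs: Rpl23a in cluster 3; Rpl27, Rpl23a, Rps6 and Rps27 in clusters 5 and 6, with Rpl28 in cluster 6; and Rpl27, Rpl23a and Rps6 in cluster 7.

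The median log2 fold change of the tested members was, for clusters 1 to 7 in turn, 0.06, 0.13, 0.15, 0.05, 0.04, 0.14 and 0.11, beside medians of 0.00 to 0.01 in size over all genes in the same fits. The clusters come from the same 8 libraries, so these medians are not independent of each other. With the replicate block, edgeR called 2, 12 and 10 members in clusters 1, 2 and 3 (6.86%, 10.4% and 5.48% of all genes) and 3 and 1 in clusters 6 and 7 (2.4% and 2.42%), all higher in knockout. Leaving out 1 library moved the counts more than 1.5 times in many cases. Without wildtype library 4 the counts were 5, 10 and 7 in clusters 1, 2 and 3 and 1 in each of clusters 4, 5, 6 and 7, and without knockout library 3 they were 0 in every cluster. Cluster 1 also fell to 0 without wildtype library 1, 2 or 3 or knockout library 2 or 4. Cluster 2 gave 1 without wildtype library 1 and 2 without wildtype library 2 or knockout library 1. Cluster 3 gave 0 without wildtype library 1, 2 or 3 and 1 without knockout library 1 or 4.

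**Figure D3:**
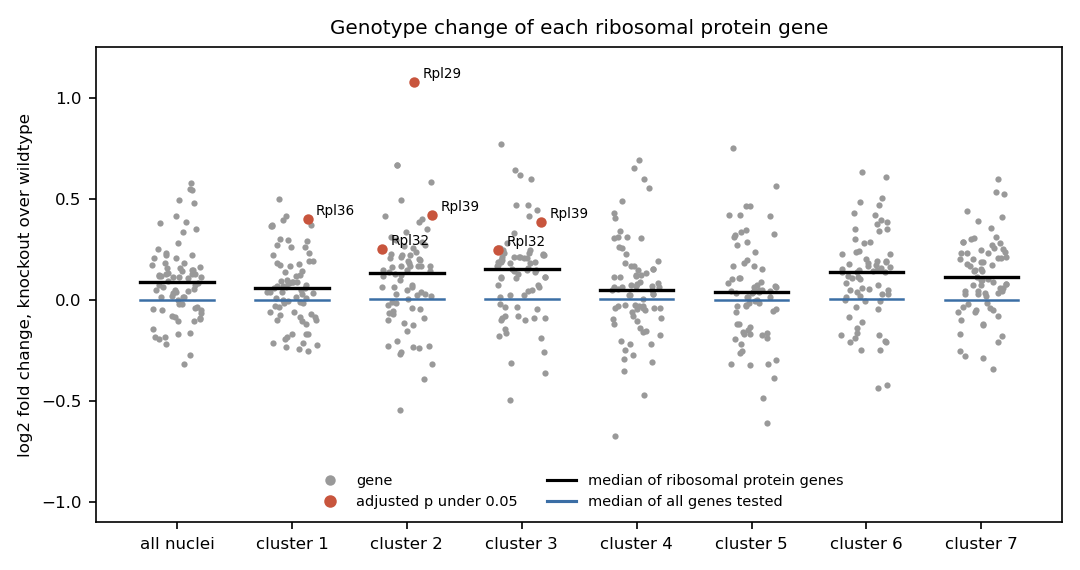
Log2 fold change, knockout over wildtype, of each tested ribosomal protein gene (points) over all nuclei and in each cluster, with 2 genes not shown; red points have an edgeR adjusted p under 0.05, black lines are the medians of all tested ribosomal protein genes and blue lines the medians of all genes tested. The black lines lie above the blue lines in all 8 columns, by the most in cluster 3, and the red points are in clusters 1, 2 and 3.

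Rpl29, a large-subunit protein also known for binding heparin, had the largest change. It lies at chr9:106429454-106431568 on the plus strand (GRCm38, GENCODE M21). In cluster 2 it stood at 2.93, 7.66, 4.79 and 8.53 CPM in wildtype and at 16.7, 10.5, 12.9 and 10.2 CPM in knockout libraries. All knockout values lay above all wildtype values. The log2 fold change was 1.08 ± 0.27 (SE, edgeR adjusted p = 0.0233), on means of 25.8 and 52.8 UMIs per library. The call was lost without wildtype library 1 or 3 or knockout library 1 or 3, with adjusted p from 0.0553 to 0.0683. Only 11.9% of the 31-base stretches of its transcript were unlike other genes, and 102 other genes, 101 of them pseudogenes, shared at least 1, so its UMIs cannot be assigned to this locus with certainty.

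In cluster 4 Rpl29 stood at 4.83, 8.65, 6.01 and 11.6 CPM in wildtype and at 10.1, 5.77, 8.90 and 6.61 CPM in knockout, with full overlap. The difference between the changes in clusters 2 and 4, taken within each library and tested with limma over 11060 genes, was 1.03 ± 0.20 on the log2 scale (SE, adjusted p = 0.0132). Rpl29 was the 1 member called in this comparison, in which 4.15% of all genes passed. For the changes in cluster 1 and in cluster 3 against cluster 4, limma called 0 of 78 and 0 of 77 members (1.93% and 1.06% of all genes), with 2 and 13 members at an unadjusted p under 0.05, against 12.1% and 13.4% of all genes. For cluster 2 there were 8 of 78, against 16.9%. The Rpl29 difference was 0.71 ± 0.23 for cluster 3 (limma adjusted p = 0.202). Median differences over the members were 0.02, 0.11 and 0.12 for clusters 1, 2 and 3, beside medians of 0.00 to 0.01 in size over all genes.

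Rpl39, a short large-subunit protein that lines the exit tunnel, lies at chrX:37082520-37085402 on the minus strand. In cluster 2 it stood at 222, 285, 316 and 352 CPM in wildtype and at 366, 417, 400 and 379 CPM in knockout, and in cluster 3 at 235, 287, 309 and 334 CPM in wildtype and at 347, 402, 393 and 352 CPM in knockout. In both clusters every knockout library lay above every wildtype library, and wildtype library 1 was the lowest. The log2 fold changes were 0.42 ± 0.11 (edgeR adjusted p = 0.0357) and 0.39 ± 0.10 (adjusted p = 0.0459). In cluster 4 it was 0.31 ± 0.12 (edgeR adjusted p = 0.233), with overlap. The cluster 2 call was lost without wildtype library 1 or 2 or knockout library 2 or 3 (adjusted p 0.0540 to 0.102), and the cluster 3 call without any of these or without wildtype library 3 (0.0503 to 0.147). Rpl39 shared 31-base stretches with 16 other genes, and 65.7% of its stretches were unlike all of them.

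Rpl32, a large-subunit protein, lies at chr6:115805505-115808747 on the minus strand. In cluster 2 it stood at 673, 659, 731 and 736 CPM in wildtype and at 860, 786, 802 and 881 CPM in knockout, and in cluster 3 at 646, 666, 667 and 711 CPM in wildtype and at 818, 716, 785 and 816 CPM in knockout. The groups did not overlap in either cluster, with knockout library 2 the lowest of its group in both. The log2 fold changes were 0.25 ± 0.07 (edgeR adjusted p = 0.0285) and 0.25 ± 0.06 (adjusted p = 0.0287). Leaving out wildtype library 1 or 2 or knockout library 1, 3 or 4 ended the call in cluster 2 (adjusted p 0.0547 to 0.0848), and leaving out any library but knockout 2 ended it in cluster 3 (0.0554 to 0.0931). Scaling by library totals also ended the cluster 3 call (adjusted p = 0.0565).

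Rpl36, a large-subunit protein, was the 1 call in cluster 1, and is named here because the count was 1. It lies at chr17:56613416-56614243 on the plus strand. It stood at 39.8, 49.6, 50.5 and 58.7 CPM in wildtype and at 58.1, 67.9, 69.0 and 62.7 CPM in knockout. Knockout library 1 fell just below wildtype library 4, and all other knockout values were above the wildtype values. The log2 fold change was 0.40 ± 0.11 (edgeR adjusted p = 0.0443). It passed no longer without wildtype library 1, 2 or 3 or knockout library 2, 3 or 4 (adjusted p 0.0617 to 0.160), nor when scaled by library totals (adjusted p = 0.0562). Of its 31-base stretches, 5.95% were unlike the 27 other genes that shared sequence with it.

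**Figure D4:**
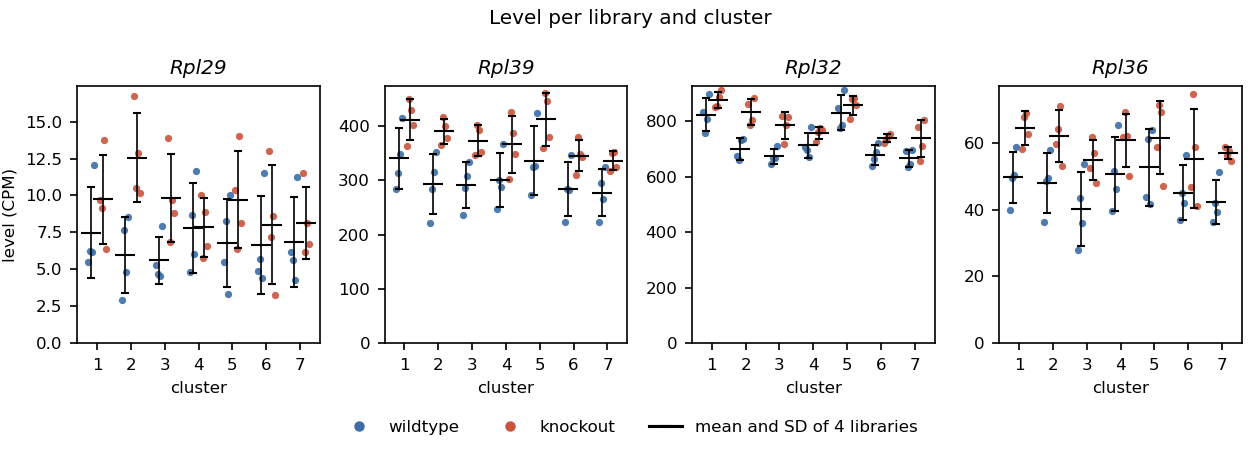
Level in CPM (linear axes from 0) of 4 ribosomal protein genes with a call in a cluster, per library (points) in clusters 1 to 7; bars show the mean and SD of 4 libraries. Rpl29 separates the genotypes in cluster 2 and not in cluster 4, while Rpl39 and Rpl32 lie higher on average in knockout in every cluster.

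The groups without overlap were more than the calls in cluster 2, where Rpl23, Rps24 and Rps27l joined the 4 called genes, all higher in knockout (6.46% of all genes in that direction). In cluster 3, Rps20 and Rps24 joined Rpl32 and Rpl39 (3.04% of all genes). In cluster 2, Rps27l reached a log2 fold change of 0.31 (edgeR adjusted p = 0.0722) and Rps24 in cluster 3 of 0.22 (adjusted p = 0.0655). In cluster 6 the ranges of Rpl13a, Rps19bp1 and Rps24 were separate with knockout higher (2.11% of all genes), and in cluster 7 those of Rpl22 and Rpl36 (2.24%). With knockout lower, Rpl7 was separate in clusters 1 and 6 (6.29% and 3.81% of all genes) and Rpl10 and Rpl21 in cluster 5 (3.87%). None of these 9 differences passed (edgeR adjusted p from 0.105 to 0.752).

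The spread of ribosomal protein genes between libraries of one genotype was wide beside that of all genes at 10 CPM or more. Among the 65 genes with at least 10 CPM, the highest wildtype library exceeded the lowest by a median of 1.30-fold, against 1.17-fold over 8906 genes. The factor was 1.5 or more in 19 of them (29.2%), against 8.05% of all genes. Wildtype libraries 1 and 4 lay at the ends: library 1 was the lowest for 27 genes and the highest for 20, and library 4 was the highest for 36 and the lowest for 17. Libraries 2 and 3 were the highest for 1 and 8 genes.

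Rpl30, a large-subunit protein that regulates its own splicing in yeast, had the widest wildtype range, with 43.8, 91.3, 71.5 and 128 CPM in the 4 wildtype and 104, 105, 134 and 99.0 CPM in the 4 knockout libraries. Rpl38 stood at 111, 199, 167 and 285 CPM in wildtype and at 249, 292, 344 and 243 CPM in knockout. For both, wildtype library 1 was below all 7 others, and wildtype library 4 lay within the knockout range. Rpl7a ran the other way, with 33.2, 20.5, 22.9 and 14.7 CPM in wildtype and 16.9, 20.9, 16.1 and 18.1 CPM in knockout. Wildtype library 1 was above all others and wildtype library 4 below all others. The genotype changes of these 3 genes did not pass over all nuclei (edgeR adjusted p of 0.437 for Rpl30, 0.227 for Rpl38 and 0.436 for Rpl7a).

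In log2 terms, wildtype library 4 exceeded library 1 by more than 0.5 in 14 of the 65 genes (21.5%, against 1.10% of all genes): Rpl30, Rpl38, Rpl35, Rpl22l1, Rplp2, Rps15a, Rpl35a, Rps21, Rpl34, Rpl37a, Rpl36, Rps25, Rpl39 and Rps15. It was lower by more than 0.5 in 8 (12.3%, against 2.59%): Rpl10a, Rpl7a, Rpl19, Rpl3, Rps10, Rpl11, Rps13 and Rpl36al. These libraries and sets were chosen after their values were seen, so no test is attached. The first set encodes short proteins, with a median of 115 residues (51 to 145), and the second longer ones, with a median of 187 (106 to 403). The genes within 0.5 had a median of 159 residues and the widest range (25 to 419), so short proteins were also among them. The sets also differed in shared sequence. The median share of 31-base stretches unlike other genes was 39.8% in the first, 15.7% in the second and 61.6% in the genes within 0.5. The parts of length and of shared sequence were not tested. Over the family, Spearman's rho between the log2 ratio and coding length was -0.53 (n = 64 genes), and over 8609 genes it was 0.11. Genes of one library share its depth and handling, so these are descriptions across genes without a p. Rpl36 and Rpl39, called above, are in the first set. Rpl29, also called above, was left out of both sets because it had fewer than 10 CPM. Its log2 ratio of wildtype library 4 to library 1 was 1.04, and that of Rpl32 was 0.14. Every gene of the first set but Rpl34 had a genotype change above 0 in all 7 clusters. This held for 50.7% of the members tested in all 7, these genes included, and for 9.53% of all genes tested in all 7. In the second set Rpl7a, Rpl19, Rpl3, Rps10 and Rpl11 were below 0 in all 7, while Rpl10a, Rps13 and Rpl36al were not. The shares below 0 were 9.59% of those members and 7.10% of all genes. Wildtype libraries 1 and 4 also enter the genotype change, and all clusters share the same libraries, so these signs are not independent of the sets. The part of the difference between libraries in the genotype changes was not tested.

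The ratio was also taken within clusters for 10 of these genes. The log2 ratio of wildtype library 4 to library 1 for Rpl30 lay between 1.252 and 1.71 over the 7 clusters, for Rpl38 between 1.28 and 1.53, and for Rpl35 between 1.10 and 1.49. For Rpl19 it lay between -0.99 and -0.79, for Rpl11 between -0.87 and -0.47, and for Rpl10a between -1.72 and -0.08, so that the last 2 lay within 0.5 of 0 in at least 1 cluster. Long C or T runs at the start site occurred in both sets, as the printed sequences of Rpl38, Rpl35 and Rplp2 in the first and of Rpl7a and Rps10 in the second show. These genes were printed as examples of long runs, so they do not show how common such runs are in either set. The ranges of the mitochondrial share of UMIs (1.66% to 2.31% in wildtype, 1.70% to 2.32% in knockout) and of the erythroid share (0.0323% to 0.0594% and 0.0239% to 0.0507%) overlapped between the groups, and both were highest in wildtype library 3 among the wildtype libraries. Their part in the differences between libraries was not tested.

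**Figure D5:**
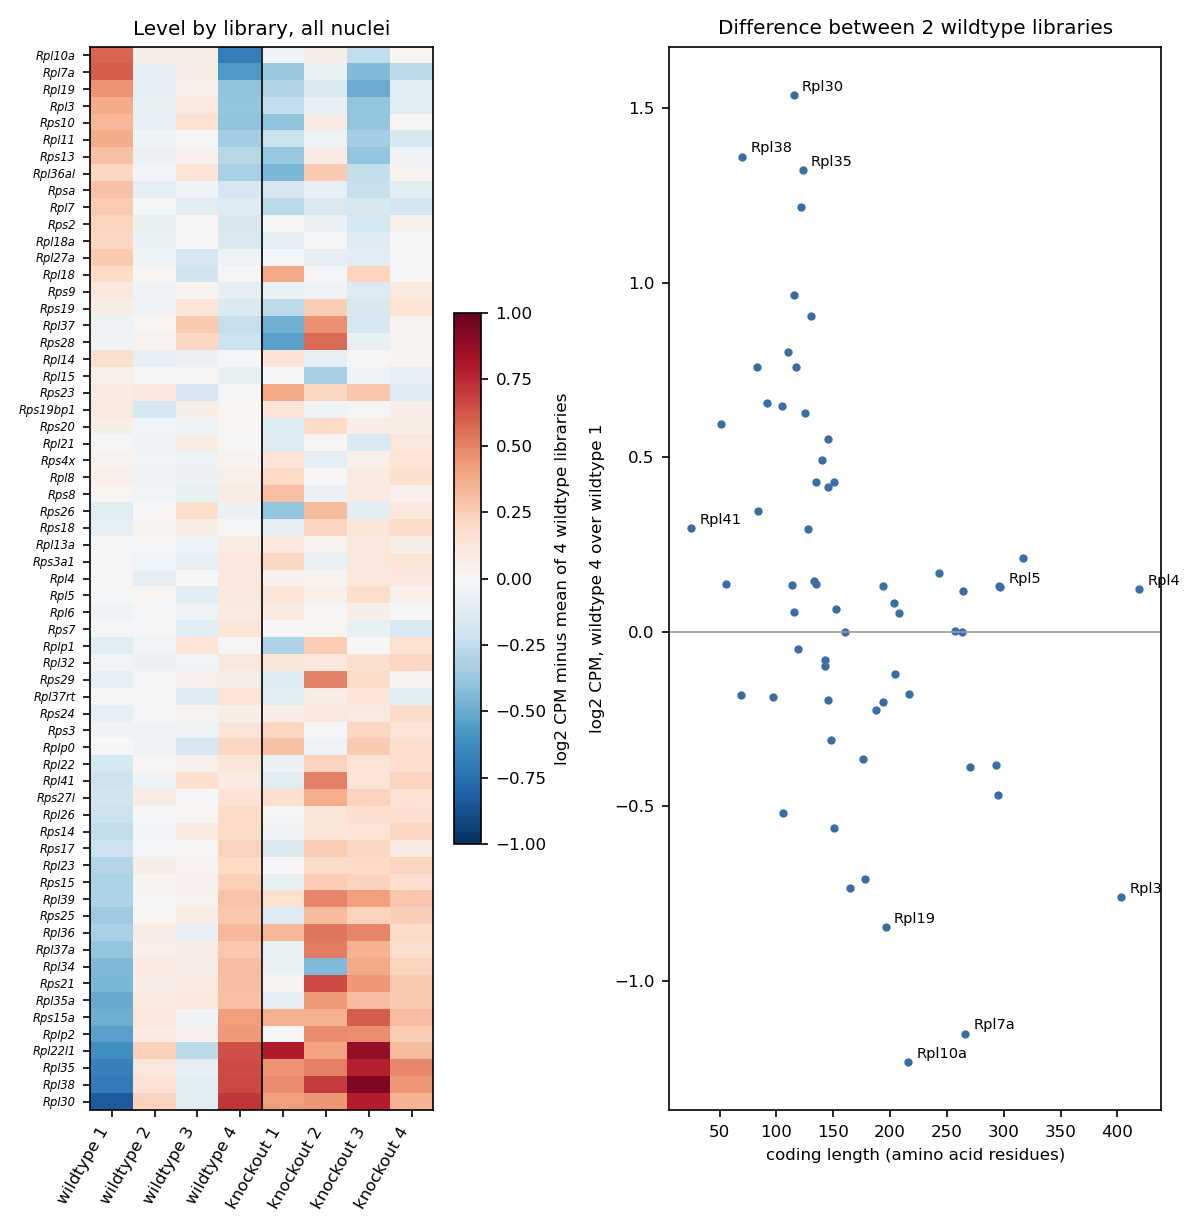
Left, log2 CPM of all but 2 of the 65 ribosomal protein genes with at least 10 CPM in each library minus the mean of the 4 wildtype libraries, all nuclei, ordered by the log2 ratio of wildtype library 4 to library 1. Right, that log2 ratio against coding length in amino acid residues for those of these genes with a principal transcript; the highest points, Rpl30, Rpl38 and Rpl35, are short proteins, and Rpl10a, Rpl7a and Rpl19 are the lowest.

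Genes that act with the ribosomal proteins were read from lists chosen by function. Their counts stand beside the shares of all genes that passed in the same fits, 5.26% over all nuclei and 0.779% to 9.11% in the clusters. Of 27 translation factors and other genes with TOP mRNAs (such as Eef1a1 and Pabpc1), 0 passed over all nuclei in edgeR or changed in any cluster but cluster 3, where Ipo5, an importin that carries ribosomal proteins to the nucleus, fell by 0.52 on the log2 scale (adjusted p = 0.00135). Their median log2 fold change over all nuclei was 0.08, close to the 0.09 of the ribosomal proteins. Of 44 ribosome biogenesis genes, 43 were tested in cluster 2, where 4 fell and none rose, near the 9.11% of all genes that passed there: Mdn1, an ATPase that releases assembly factors from the large subunit (-0.43 ± 0.08, edgeR adjusted p = 0.00541), Wdr12 (-0.41 ± 0.09), Wdr43 (-0.40 ± 0.10) and Utp20 (-0.33 ± 0.10). The biogenesis median there was -0.04, beside 0.00 over all genes. In cluster 3 Wdr12, a partner of Pes1 and Bop1 in large-subunit assembly, fell by 0.45 (edgeR adjusted p = 0.0284), and in cluster 5 Taf1d, a subunit of the RNA polymerase I selectivity factor, rose by 0.50 (adjusted p = 0.0489). No other biogenesis gene passed in any cluster or over all nuclei.

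Of 30 mTOR pathway genes in the tables, Deptor, an inhibitor of mTOR, fell over all nuclei from 9.03 ± 1.06 to 5.65 ± 0.503 CPM (log2 fold change -0.65 ± 0.10, edgeR adjusted p = 0.00836). It also fell in cluster 1 (-1.01 ± 0.23) and in cluster 6, from 22.0 ± 3.17 to 5.37 ± 0.304 CPM (-1.99 ± 0.21, adjusted p = 0.000251). Larp1, the TOP mRNA-binding protein, fell in cluster 2 from 147 ± 6.15 to 124 ± 10.8 CPM (-0.25 ± 0.07, edgeR adjusted p = 0.0444). The other mTOR genes did not pass in any fit. Mitochondrial ribosomal proteins, which serve a separate ribosome, gave 0 calls of 71 over all nuclei and 0 in each cluster with edgeR (5.26% of all genes passed over all nuclei, and 9.11% in cluster 2), and their medians ran from -0.02 in cluster 5 to 0.06 in cluster 3. The 1 tested row of a processed copy had a log2 fold change of 0.19 over all nuclei, 0.42 in cluster 3 and -0.44 in cluster 4, and did not pass in any of these fits.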

How the data were processed

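Droplet single-nucleus libraries (10x 3' chemistry, version 2, per the labels' protocols) were processed by the authors with kallisto and bustools against mm10, per the submitters' processing notes, which give no versions. The deposited matrices hold raw UMI counts per gene and nucleus, and the deposited cell tables give the cluster, the cell-cycle angle and a doublet (hybrid) score, under 0.5 in all nuclei kept. No nucleus was removed here. How reads matching several genes or introns were counted is not given in the sources used here. Positions come from GENCODE M21 and RefSeq, not from the deposited tables.

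UMI counts were summed per library, over all nuclei and per cluster (at least 314 nuclei per library), and tested between genotypes with edgeR 4.0.16 (quasi-likelihood, TMM factors, filterByExpr), with Benjamini-Hochberg adjustment over all genes and a threshold of 0.05. Levels (CPM) are UMIs divided by the library's total and multiplied by 1000000, without TMM factors, and log2 fold changes are from the fit. Changes between clusters were tested with limma 3.58.1 on differences of log2 CPM within a library (prior count 2). Each fit was tested on simulated data with 200 changed genes. Alternatives were DESeq2 1.42.0, DESeq2 size factors, library totals, no filter, a replicate block, another prior count and leaving out each library. Nothing in the labels says that samples are separate embryos, so p-values measure the spread between these samples, which may be technical. All libraries carry the same date in the cell tables, so they could not be divided by date, and other batches were not tested beyond the replicate block. Intervals of single counts were not needed, since every value rests on 4 libraries a group.

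Same-numbered samples of the 2 groups deviated together from their group means, with correlations across genes of 0.398, 0.185, 0.192 and 0.179 for numbers 1 to 4, each over the limit of 0.1, so the numbers were taken to pair the samples. Samples with unlike numbers gave -0.356 to 0.287. Wildtype 3 with knockout 4 (0.287), wildtype 2 with knockout 3 (0.167) and wildtype 1 with knockout 2 (0.113) were also over the limit. The check therefore does not single out the same-numbered pairs, and the pairing is an assumption of the replicate block. Over the ribosomal protein genes alone the same-numbered correlations were 0.319, -0.138, -0.397 and -0.0874. Unlike numbers gave -0.782 (wildtype 1 with knockout 3) to 0.813 (wildtype 4 with knockout 3) over these genes, so the block does not join the samples that deviate together most. The genes, lists and rules for named genes were chosen with earlier results of these data known. Named were called members with separate ranges in each fit (the 3 to 5 largest changes each way), the 10 most abundant, the 5 highest and lowest ratios of cluster 4 to clusters 1, 2 and 3, and a list of paralogs and well-known members. Other members were named after their values were seen. The values of 2 genes are not reported here.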

Additional observations from a re-analysis of the deposited data

Results flagged for a closer look

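In cluster 5, wildtype library 4 gave a ribosomal protein share of 2.22% of UMIs where the other 3 wildtype libraries gave 1.98% to 2.01%. The gap to its nearest neighbour was 0.872 of the group's whole range. For Rps3, a small-subunit protein of the mRNA entry channel, wildtype library 4 stood at 321 CPM over all nuclei and the other 3 at 284 to 286 CPM, a gap of 0.953 of the range. These were 2 of 102 groups of libraries checked in this way, where chance flags about 1 in 20. For Rpl29, the change between genotypes was larger in cluster 2 than in cluster 4 by 1.03 on the log2 scale, with a test of the difference itself (limma adjusted p = 0.0132).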

How the results depend on the processing

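All calls of ribosomal protein genes were higher in knockout under every alternative that made them, except that Rpl11 was called lower in cluster 5 without wildtype replicate 4. With the replicate block the counts were 5 over all nuclei, 2, 12 and 10 in clusters 1, 2 and 3, and 3 and 1 in clusters 6 and 7, and the block changed no other count. Scaling by library totals gave 0 in cluster 1 and 1 in cluster 3, and DESeq2 gave 5 in cluster 3. Leaving out each library in turn gave 0 to 5, 0 to 10 and 0 to 7 in clusters 1, 2 and 3 and 0 to 1 in each of clusters 4, 5, 6 and 7. The cause of these changes was not tested, beyond the smaller number of samples. The Rpl29 difference between clusters 2 and 4 passed in all 11 alternatives run for it (0.94 to 1.10 on the log2 scale, limma adjusted p 0.0125 to 0.0489). The share of UMIs in cluster 5 changed sign when single libraries were left out (-0.0292 to 0.08003 percentage points), within the spread of the libraries, and in the other clusters it kept its sign, though in clusters 1 and 4 it moved by over 1.5 times (0.0462 to 0.123 and 0.0239 to 0.0919 points). Over all nuclei no scaling moved the median of all genes by more than 0.1 on the log2 scale. In the smaller clusters up to 5 members had too few UMIs to test, so a change in them was not detectable at this depth.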

Other observations

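Genes of energy metabolism were read beside the ribosomal proteins. Of 98 nuclear genes of oxidative phosphorylation, none passed over all nuclei or in any cluster with edgeR (5.26% of all genes passed over all nuclei and 0.779% to 9.11% in the clusters), and their median log2 fold change was 0.07 over all nuclei, 0.13 in cluster 2 and 0.03 in cluster 4. Of 19 genes of the mitochondrial genome, mt-Nd3, a subunit of complex I, fell over all nuclei from 194 ± 115 to 2.62 ± 1.24 CPM (SD, n = 4 libraries each, log2 fold change -6.16 ± 0.56, edgeR adjusted p = 0.000239), and it fell in each of the 7 clusters. In cluster 1 mt-Nd6 rose by 0.48 (edgeR adjusted p = 0.00129), and the transfer RNA gene mt-Ta rose by 1.11 in cluster 2 and by 1.12 in cluster 3 (adjusted p 0.0414 and 0.0445). No other gene of the mitochondrial genome passed, and the median log2 fold change of the 19 over all nuclei was 0.09. The wildtype values of mt-Nd3 spread widely (SD 115 on a mean of 194 CPM), and the cause of its fall was not tested.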
